A study of Mus musculus with 8 samples.

Results

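Gas5 is a long non-coding gene of growth-arrested cells whose introns carry a series of small nucleolar RNAs (snoRNAs), and these snoRNAs were followed in 8 small RNA libraries of mouse macrophages. Members were all features of type snoRNA with mm10 coordinates inside chr1:161030000-161045000. The rule found 9 of the 3514 features listed in the 2 deposited tables, or 9 of 526 snoRNA features, and all 9 were listed in both tables. No feature of another type was listed inside the window. The rule itself used position and no measured value.

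The libraries came from bone marrow-derived macrophages (BMDMs) of C57BL/6J mice, which the methods describe as male and 10 weeks old. These primary cells grow out of marrow in medium conditioned by L929 fibroblasts, a source of Macrophage-Colony Stimulating Factor (M-CSF), on which their growth and survival depend. Control cells were compared with cells kept without M-CSF for 36 h. The Ion Proton run held 2 control and 2 M-CSF withdrawal libraries, which the methods call biological replicates. In the other table, from SOLiD sequencing, total RNA was covered by a single library per condition, and so was RNA selected for a size of 25 to 40 nt. The methods name total RNA as the input of the Ion Proton libraries and the labels name a small RNA extract. No transgene, sort or other agent entered any group. The RNA integrity number was 8.4 to 8.9 in the Ion Proton run. For SOLiD total RNA it was 8.4 (control) and 7.5 (withdrawal), and for the size-selected pair 2.7 and 2.6.

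Each Ion Proton library had 6053130 to 7760142 reads on listed features. The SOLiD libraries had 5772453 (control) and 12178454 (withdrawal) for total RNA, and 8910972 and 4039837 for size-selected RNA. Levels are given as counts per 1000000 listed reads (CPM, Ion Proton) or the authors' reads per 1000000 (RPM, SOLiD), which are shares of a library and not amounts per cell. Fewer cells and less RNA per cell cannot be told apart in such values. Nor can whole snoRNAs and fragments cut from them be told apart, because reads were counted over the whole feature. The denominator itself moved with treatment. In the Ion Proton run miRNAs took 40.4% and 41.6% of control reads and 30.0% and 30.3% of withdrawal reads. In SOLiD total RNA they took 82.2% (control) and 41.3% (withdrawal), and in size-selected RNA 87.4% and 45%. miR-223-3p, a miRNA of myeloid cells, was present in all 8 libraries, at 66.9 to 96.5 CPM in the Ion Proton run and 4473 to 11725 RPM in the SOLiD run.

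snoRNAs of the C/D box class guide the methylation of ribose in ribosomal RNA. A C box near the 5′ end and a D box near the 3′ end hold the core proteins, and the bases just before a D box pair with the rRNA site to be modified. Most vertebrate members are cut from the introns of a host transcript after splicing, so that a host with many introns supplies many guides. Gas5 is such a host. Its spliced RNA has no long conserved reading frame, starts with a pyrimidine tract like the ribosomal protein mRNAs, and is known to accumulate in cells that stop growing.

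The 9 members lay on the plus strand of chromosome 1 inside Gas5 (ENSMUSG00000053332, chr1:161034422-161038539 in mm10). In the annotated transcript with the most exons, Gas5-224 with 12 exons and 11 introns, each snoRNA had an intron to itself, and only the introns 4 and 7 held none. From 5′ to 3′ the order was Gm26224 (chr1:161035394-161035473, intron 1), Gm22489 (chr1:161035850-161035911, intron 2), Gm22357 (chr1:161036057-161036139, intron 3), Gm23212 (chr1:161036682-161036741, intron 5), Snord78 (chr1:161036984-161037049, intron 6), Mir5117 (chr1:161037356-161037439, intron 8), Snord80 (chr1:161037601-161037681, intron 9), Snord47 (chr1:161038082-161038158, intron 10) and Gm25789 (chr1:161038308-161038383, intron 11). Of these, Snord78, Snord80 and Snord47 are known guides of large-subunit rRNA, and the other names are those of the annotation. Mir5117 is listed as a snoRNA gene under that symbol, and no miR-5117 feature was listed in the tables. The distance from the end of the snoRNA to the next exon was 65 to 78 nt for 7 of the 9, and 278 nt for Gm26224 and 313 nt for Snord80. Between 1 and 6 of the 25 annotated Gas5 transcripts run through each member as exon, and reads from such transcripts would be counted on the same bases.

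**Figure D1:**
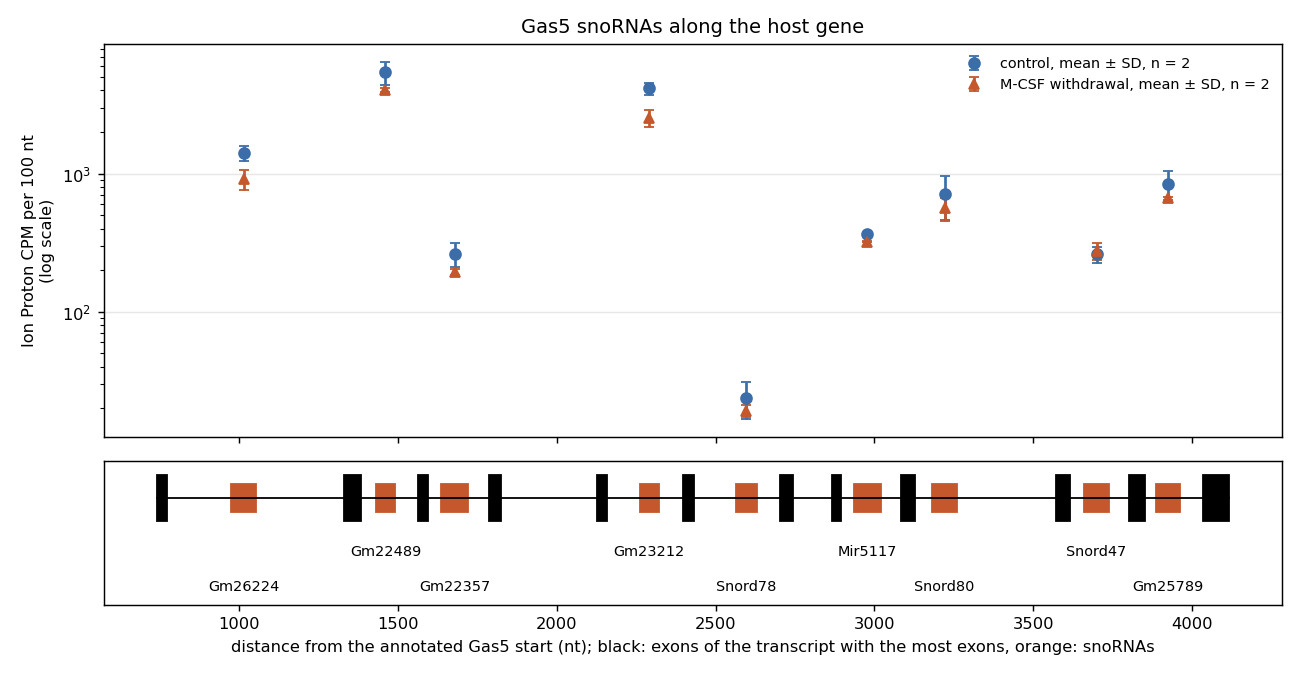
Position of the 9 snoRNAs (orange) between the exons (black) of Gas5, as distance from the annotated gene start in nt, with the Ion Proton level of each above it as CPM per 100 nt on a log scale (mean ± SD, n = 2 libraries a group). Gm22489 and Gm23212 stood highest in control and withdrawal libraries and Snord78 lowest, and neighbours along the gene differed in level.

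The members measured 60 to 84 nt. The sequences of 7 are shown as deposited, which were identical to the annotated transcripts, because the results below turn on them: Gm22489 was the most abundant in the Ion Proton run, Gm23212 was the member that passed the Ion Proton test, Gm26224 led the size-selected libraries, Mir5117 and Gm25789 differed most between the runs, and Snord80 and Snord47 had the highest ratios in size-selected RNA. Capitals mark the C box, searched as TGATGA within the first 25 nt, or as TGATG where the sixth letter differed, and the D box, searched as CTGA within the last 15 nt, on the transcribed strand.
Gm26224: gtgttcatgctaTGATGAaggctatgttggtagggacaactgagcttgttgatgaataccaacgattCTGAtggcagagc
Gm22489: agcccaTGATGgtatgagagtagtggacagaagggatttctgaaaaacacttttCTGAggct
Gm23212: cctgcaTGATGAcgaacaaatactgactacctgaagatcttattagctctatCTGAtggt
Mir5117: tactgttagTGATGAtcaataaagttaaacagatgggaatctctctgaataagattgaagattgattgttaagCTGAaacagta
Snord80: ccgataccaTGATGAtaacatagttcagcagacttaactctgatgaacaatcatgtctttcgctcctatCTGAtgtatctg
Snord47: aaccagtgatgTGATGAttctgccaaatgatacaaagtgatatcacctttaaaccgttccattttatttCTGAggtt
Gm25789: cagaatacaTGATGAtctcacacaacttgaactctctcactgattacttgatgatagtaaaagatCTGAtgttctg

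All 9 members held CTGA together with TGATG in these windows, and 7 held CTGA together with TGATGA, Gm22489 and Snord78 being the others. Of the 522 listed snoRNAs with a sequence, 107 (20.5%) held TGATGA with CTGA and 143 (27.4%) held TGATG with CTGA. These 522 were not split by class. The shares thus do not set the Gas5 members apart from other C/D box snoRNAs. The GC content ranged from 28.8% in Snord78 to 45% in Gm26224. Of the 9, Gm25789 shared a stretch of 20 or more bases with another listed feature, Gm25802 (chr3:100303288-100303364, 24 bases), and reads could in principle map to both. The annotation also holds a second, nested Snord80 entry that was not listed.

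Levels were compared between members per 100 nt of feature length. In the 4 Ion Proton libraries the 6 highest members kept one order, Gm22489, Gm23212, Gm26224, Gm25789, Snord80 and Mir5117, and Snord78 was last. In control libraries Gm22489 had 5413 ± 1036 CPM per 100 nt and Gm23212 had 4148 ± 418 (mean ± SD, n = 2), and their ranges did not overlap. Gm26224 followed with 1406 ± 175, Gm25789 with 838 ± 210 and Snord80 with 710 ± 252, the last pair lying within their spread. Mir5117 had 366 ± 1.23, Gm22357 had 264 ± 53.1 and Snord47 had 260 ± 34.6, the last 2 again within their spread. Snord78 had 23.7 ± 7.02. All other neighbours in this order had ranges that did not overlap. The highest member was 202 to 249 times the lowest in the 4 libraries, although all 9 come from introns of the same gene.

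The Ion Proton run asked how the snoRNAs changed on M-CSF withdrawal with replicates. 8 of the 9 members had a lower fitted level after withdrawal, by 0.13 to 0.66 on the log2 scale (4 of 9 with scaling factors from miRNAs alone), and Gm23212 alone passed the test over all features. A lower fitted level was also found for 958 of all 2029 features tested and for 183 of 373 snoRNAs. Gm23212 had 2666 and 2311 CPM in control libraries and 1668 and 1362 CPM after withdrawal. Both withdrawal values lay below both control values, with group means of 2489 ± 251 and 1515 ± 217 CPM (SD, n = 2). The change was -0.66 ± 0.13 on the log2 scale (SE), with an adjusted p of 0.0242 by edgeR's quasi-likelihood test, adjusted after Benjamini and Hochberg. Of the 2029 features tested, 8.97% passed in the same direction (182) and 15.7% passed as higher after withdrawal (318), so that 1 of 9 lower members was close to the share of all features. Library scaling moved that split: with scaling factors from miRNAs alone, 413 features were higher and 80 lower, and with DESeq2's size factors in edgeR 299 were higher and 255 lower. DESeq2's own test, which changes scaling and test together, gave 232 higher and 238 lower.

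Gm26224 had 1026 and 1224 CPM in control libraries and 814 and 642 CPM after withdrawal. Its groups did not overlap either, and the change of -0.58 ± 0.15 on the log2 scale missed the threshold in edgeR's quasi-likelihood test (adjusted p = 0.0572). Gm22489, the most abundant member, had 3811 and 2902 CPM in control libraries and 2564 and 2447 CPM after withdrawal. Its 2 control libraries differed more from each other than the lower of them differed from either withdrawal library, unlike those of Gm26224. The change of Gm22489 was -0.37 ± 0.14 on the log2 scale (adjusted p = 0.150, edgeR).

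Gm22357 had 250.4 and 188 CPM in control libraries and 167 and 156 CPM after withdrawal. Gm25789 had 749.6 and 524 CPM, then 513 and 494 CPM. Mir5117 had 306 and 308 CPM, then 270.5 and 271 CPM. These 3 members also had no overlap between the groups, and the replicates of Mir5117 lay within 1 CPM after withdrawal and within 2 CPM in control cells. None passed the test, with changes of -0.39 ± 0.16, -0.29 ± 0.18 and -0.13 ± 0.07 on the log2 scale and adjusted p-values of 0.165, 0.35 and 0.307 by edgeR.

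The groups overlapped for the remaining 3. Snord80 had 719 and 431 CPM in control libraries and 512 and 395 CPM after withdrawal. Snord47 had 219 and 181 CPM, then 233 and 191 CPM, and was the member whose fitted level was higher after withdrawal (0.14 ± 0.14 on the log2 scale, adjusted p = 0.570 by edgeR). Snord78, the scarcest, had 18.9 and 12.4 CPM, then 13.5 and 11.7 CPM. Changes of Snord80 and Snord78 were -0.29 ± 0.28 and -0.26 ± 0.25 on the log2 scale, about as large as their errors. Of the 9 members, 6 thus had withdrawal values entirely below the control values, a pattern seen in 28.0% of all features tested (568 of 2029). No member passed as higher, with adjusted or unadjusted p.

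**Figure D2:**
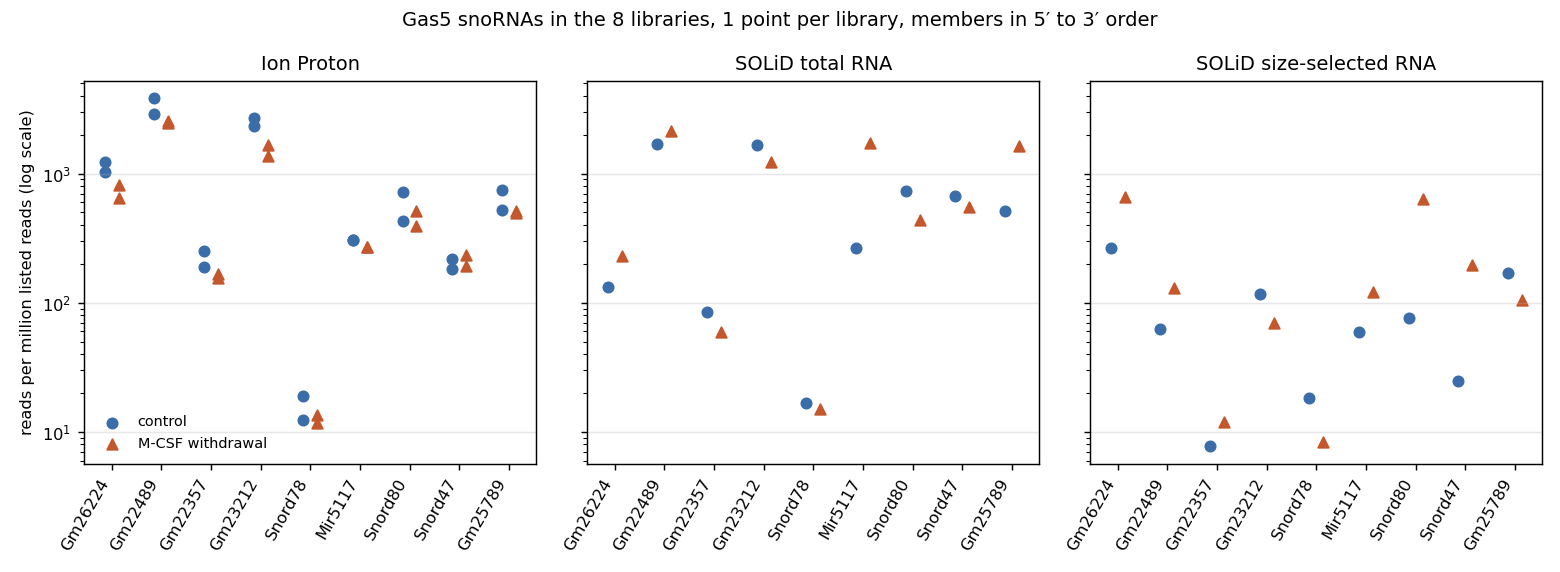
Level of each Gas5 snoRNA in each of the 8 libraries, as reads per 1000000 listed reads on a log scale, with control libraries as circles and M-CSF withdrawal libraries as triangles. In the Ion Proton panel most triangles sit below the circles, while in the SOLiD panels Mir5117 and Gm25789 (total RNA) and Snord80 and Snord47 (size-selected RNA) stand far above their control.

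Which members passed depended on the test. DESeq2 called 5 lower (Gm26224, Gm22489, Gm22357, Gm23212 and Gm25789), against 17.0% of the 1399 features for which it gave an adjusted p. With scaling factors from miRNAs alone no member passed in edgeR, with adjusted or unadjusted p, and 4 of 9 had a fitted change below 0. That scaling raised the median change of all features from 0.08 to 0.39 on the log2 scale. The median of the 9 members lay below the median of all features by 0.37 under either scaling (-0.29 and 0.02 on the log2 scale). Leaving out a library left 1 in its group. Without the second withdrawal library the median change was -0.27 for the members and 0.06 for all features on the log2 scale. Without the second control library these medians were -0.52 and 0.09. Gm23212 was at -0.54 and -0.76 in these fits, and which members passed also shifted, as given below.

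The SOLiD pair of total RNA gave the same question in a second run, with 1 library a condition, so that differences have no replicate check and the intervals cover counting error only. There 4 members were higher and 5 lower after withdrawal, and the members moved apart from each other. Of the 1086 features with a mean of 10 RPM or more, 622 were higher and 464 lower. Gm22489, at a log2 ratio of 0.31, turned to -0.20 with ratios centred on the median of all features and to -0.39 per 1000000 snoRNA reads, which left 3 higher and 6 lower. Mir5117 had 265 RPM in the control and 1715 RPM after withdrawal, a log2 ratio of 2.69 (95% counting interval 2.62 to 2.77). Gm25789 had 516 and 1629.9 RPM, a log2 ratio of 1.66 (1.60 to 1.72). These were the 2 members of 9 at least 2-fold higher, as were 42.4% of the 1086 features whose mean was 10 RPM or more. None was at least 2-fold lower, as were 12.9%. Per 1000000 snoRNA reads, 1 member was at least 2-fold higher and 3 were at least 2-fold lower. The share of all features was not computed on that scale, so these counts have no background.

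Gm25802, which shares 24 bases with Gm25789, had 56 and 144 reads in these libraries, beside 2977 and 19850 reads of Gm25789. It had more reads in the Ion Proton run, 3162 and 1622 in control libraries and 1598 and 1362 after withdrawal. Gm25789 had 5817 and 3763, then 3346 and 2988 reads there. How many reads were counted on both features was not tested. In SOLiD total RNA Gm26224 had 133 and 231 RPM, and Gm22489 had 1704 and 2119 RPM. Snord80 had 728 and 439.96 RPM, the lowest log2 ratio of the 9 at -0.73. Gm23212 had 1660.1 and 1222 RPM with a log2 ratio of -0.44, in the direction of the Ion Proton run. Gm22357 (85.2 and 59.4 RPM) and Snord47 (675 and 555 RPM) were also lower, and the interval of Snord78 (16.6 and 14.9 RPM) reached from -0.51 to 0.20 on the log2 scale. The median log2 ratio of the 9 was -0.15, beside 0.51 for all features and 0.76 for all snoRNAs.

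**Figure D3:**
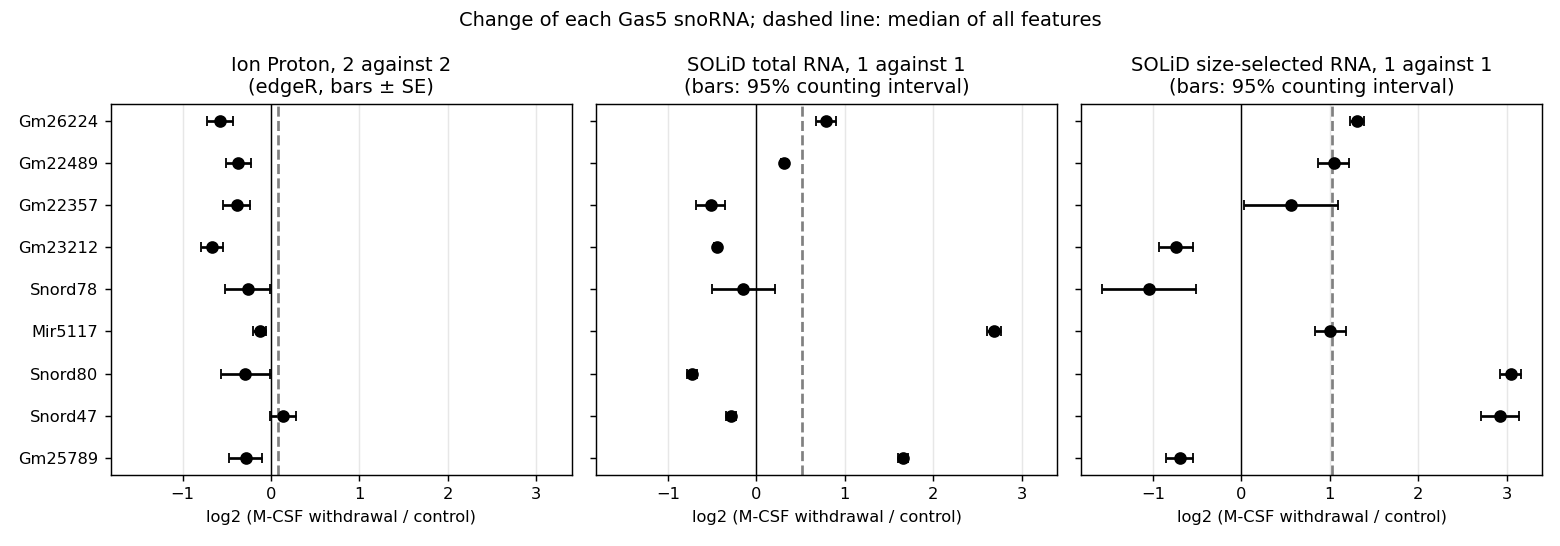
Change of each member as log2 of M-CSF withdrawal over control in the Ion Proton run (edgeR estimate ± SE) and in the 2 SOLiD pairs (single libraries, bars are 95% counting intervals), with the median of all features as a dashed line. In the Ion Proton run the members lie within -0.66 to 0.14, while they spread from -0.73 to 2.69 in SOLiD total RNA and from -1.04 to 3.04 in size-selected RNA.

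The difference between the runs was tested with limma's treatment by run term over the 6 libraries of total RNA, taking the spread from the Ion Proton replicates because the SOLiD libraries have none. The SOLiD change exceeded the Ion Proton change for Mir5117 by 2.87 ± 0.12 on the log2 scale (SE, adjusted p = 0.000705, limma), for Gm25789 by 1.97 ± 0.31 (adjusted p = 0.0132) and for Gm26224 by 1.42 ± 0.26 (adjusted p = 0.0208). These 3 of 9 compare with 21.0% of the 1701 features tested. Mir5117 and Gm25789 also passed when either control library of the Ion Proton run was left out, and when each library was centred on its median or voom was used, Gm25789 at 1.12 with voom. Those 2 settings also called members the other way, Snord47 at -0.84 with median centring and -1.22 with voom, and Gm22357 at -0.95 with voom, so that voom gave 2 members above and 2 below 0. Leaving out either withdrawal library left 0 of 9 by limma, with 3 under 0.05 unadjusted, and 0 of all features. Gm26224 passed under 1 of 7 alternatives and was at 0.57 with voom. Kit, RNA input, sequencing platform and mapping tool differed between the runs, and the methods count the biological replicates of each run separately. Technical differences and differences between cell preparations thus cannot be told apart. The RNA integrity number of the SOLiD withdrawal library was the lowest of the 6.

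With both runs in 1 limma fit, with treatment and run as terms, Gm23212 was again the member that passed, at -0.63 ± 0.15 on the log2 scale (adjusted p = 0.0435, limma on log2 of CPM or RPM plus 1). It was lower after withdrawal in both runs. This fit includes the Ion Proton libraries and is not independent of the test above. 5.70% of the 1701 features passed as lower and 11.6% as higher. With miRNA scaling the split was 296 higher and 2 lower, with libraries centred on their median 178 higher and 230 lower, and with voom 219 higher and 178 lower. Gm23212 passed under 6 of 13 alternatives, with adjusted p-values from 0.00992 to 0.996, and its call was lost, among others, with miRNA scaling, with a minimum count of 1 and when any Ion Proton library was left out. The 6 include the fits without either SOLiD library, where the run term absorbs the SOLiD library that remains. Their changes rest on the Ion Proton libraries alone. Mir5117 had the largest positive estimate, 0.78 ± 0.57, which did not pass (adjusted p = 0.365).

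Size selection to 25 to 40 nt keeps RNA shorter than a whole snoRNA, since the shortest member has 60 nt. Reads on Gas5 snoRNAs were nevertheless present for all 9 members, at a lower level than in total RNA for 7 of 9 in either condition. Gm26224 was the exception in both conditions, with 267 RPM in size-selected and 133 RPM in total RNA of control cells, and 662 and 231 RPM after withdrawal. The other exceptions were Snord78 in control cells (18.4 and 16.6 RPM) and Snord80 after withdrawal (634 and 439.96 RPM). Gm22489, with the most reads of the 9 in both SOLiD libraries of total RNA, had 63.0 and 131 RPM in the size-selected pair. The median log2 ratio of size-selected over total RNA was -3.24 for the Gas5 members and -1.83 for all snoRNAs in control cells, and -2.23 and -1.06 after withdrawal.

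After withdrawal, 6 of the 9 members were higher in size-selected RNA per 1000000 listed reads, 4 with ratios centred on the median and 2 per 1000000 snoRNA reads. Per 1000000 listed reads, 747 of the 1036 features with a mean of 10 RPM or more were higher. So were 142 of 164 snoRNAs and 5 of 8 members above that mean. Snord80 had 76.1 RPM in the control and 634 RPM after withdrawal, a log2 ratio of 3.04 (95% counting interval 2.94 to 3.18, without pseudocount). Snord47 had 24.9 and 196 RPM, a log2 ratio of 2.93 (2.76 to 3.19). Both were lower after withdrawal in SOLiD total RNA, so that these members moved in opposite directions in the 2 RNA fractions. Gm26224 had a log2 ratio of 1.31, Gm22489 one of 1.04 and Mir5117 one of 1.00, and per 1000000 snoRNA reads these 3 ratios turned below 0 (-0.22, -0.47 and -0.51), as did that of Gm22357 (0.56 and -0.90). Snord78 went from 18.4 to 8.42 RPM (164 and 34 reads), a log2 ratio of -1.04, and was the only member at least 2-fold lower. Its 95% counting interval (-1.66 to -0.60) spanned the 2-fold line. Those of Gm22489 (0.88 to 1.23) and Mir5117 (0.84 to 1.19) did so too.

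Gm25789 went from 170.4 to 104 RPM and Gm23212 from 117 to 69.6 RPM. Gm25789 thus was lower here and higher in total RNA, while Gm23212 was lower in all 3 kinds of library per 1000000 listed reads. SOLiD ratios per miRNA read were not computed. Gm22357 had 7.74 and 11.9 RPM, under the mean of 10 RPM that a ratio needed to be counted. Of the 8 members counted, 5 were at least 2-fold higher, beside 50.7% of 1036 features, and 1 was at least 2-fold lower, beside 11.3%. Centred on the median or per 1000000 snoRNA reads, 2 were at least 2-fold higher and 3 at least 2-fold lower. The shares of all features were not computed on these scales, so these counts have no background. The median log2 ratio was 1.02 for the members and 1.02 for all features, and 1.60 for all snoRNAs. With 1 library a condition none of these ratios was tested.

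**Figure D4:**
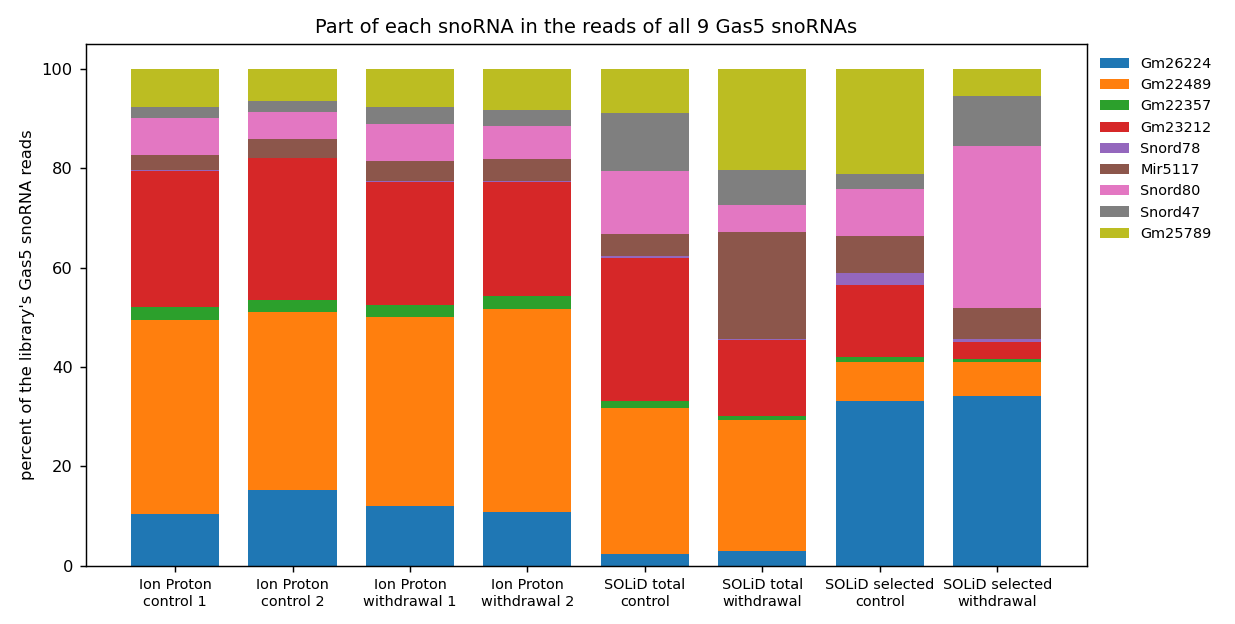
Part of each member in the reads of all 9 Gas5 snoRNAs, in percent, for each of the 8 libraries. The 4 Ion Proton bars look alike, with Gm22489 at 35.9% to 41.0%, whereas Mir5117 and Gm25789 widen in the SOLiD withdrawal library of total RNA and Gm26224 leads the size-selected pair.

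The make-up of the Gas5 reads showed the same contrast. In the 4 Ion Proton libraries Gm22489 took 35.9% to 41.0% of the Gas5 snoRNA reads, and Gm23212 took 27.3% and 28.6% in control libraries and 24.7% and 22.8% after withdrawal. Snord47 went from 2.24% in each control library to 3.45% and 3.20%. In SOLiD total RNA, Mir5117 went from 4.59% to 21.5% and Gm25789 from 8.92% to 20.4%, while Gm23212 went from 28.7% to 15.3%. In size-selected RNA Gm26224 held 33.2% and 34.2%, Snord80 went from 9.46% to 32.7%, and Gm23212 from 14.5% to 3.59%. The part of Gm23212 was thus lower after withdrawal in every comparison, and that of Gm22489 was lower in the SOLiD pairs and overlapped in the Ion Proton run.

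Summed over the 9 members, the Ion Proton libraries had 9766 and 8082 CPM in control cells and 6754 and 5969.6 CPM after withdrawal, with means of 8924 ± 1191 and 6362 ± 555 CPM (SD, n = 2). The groups did not overlap. The sum went the other way in the SOLiD run, from 5783 to 7987 RPM in total RNA and from 804 to 1938 RPM in size-selected RNA. As a share of snoRNA reads, however, the Gas5 members were lower after withdrawal in each kind of library. They took 7.04% and 6.60% of snoRNA reads in the Ion Proton controls and 6.03% and 5.10% after withdrawal, 14.3% and 12.1% in SOLiD total RNA, and 6.85% and 5.74% in size-selected RNA. Relative to control the share of snoRNA reads was 0.816, 0.846 and 0.838 times as large. The share of snoRNAs in all listed reads was lower after withdrawal in the Ion Proton run (13.9% and 12.2%, then 11.2% and 11.7%) and higher in the SOLiD run (4.04% and 6.60%, then 1.17% and 3.38% in size-selected RNA).

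**Figure D5:**
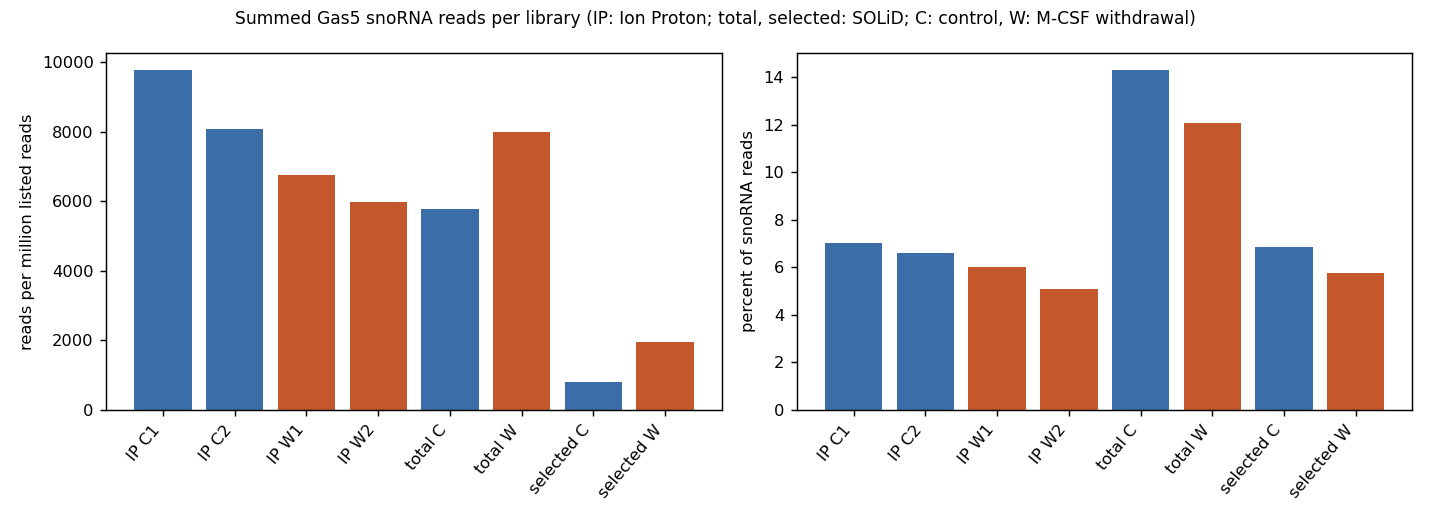
Summed Gas5 snoRNA reads in each library, per 1000000 listed reads (left) and in percent of snoRNA reads (right), with control libraries in blue and M-CSF withdrawal libraries in orange. On the left the order of control and withdrawal differs between the runs, and on the right the withdrawal bars are lower than the control bars of the same kind.

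Snhg1 is another non-coding host of C/D box snoRNAs, and Rpl13a, a ribosomal protein gene, hosts a further set. Of the 8 listed Snhg1 snoRNAs, 1 passed as higher (Snord22, 1.25 ± 0.13 on the log2 scale, named after its values were seen) and 0 as lower in the Ion Proton run by edgeR, with a median change of -0.15 on the log2 scale. Of the 4 Rpl13a snoRNAs, 1 passed as higher (Snord35a, 0.69 ± 0.10) and 0 as lower, with a median of 0.22. Among the 352 other snoRNAs tested, 27 were higher and 14 lower, with a median of 0.04. The Gas5 median of -0.29 was the lowest of these lists, and no test of the lists was run. Gm23246, the most abundant Snhg1 snoRNA, had 1926 and 1572 CPM in control libraries and 1445 and 1276 CPM after withdrawal, without overlap, and 94.4 and 330.1 RPM in SOLiD total RNA. It thus shared with Gm26224 a lower level in one run and a higher one in the other. Snord32a of Rpl13a had 341 and 283 CPM, then 356 and 414 CPM, and 197 and 321 RPM, higher after withdrawal in both runs.

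In SOLiD total RNA the median log2 ratio was -0.15 for Gas5, 0.66 for Snhg1, 0.12 for Rpl13a and 0.80 for other snoRNAs. In size-selected RNA it was 1.02, 0.87, 1.31 and 1.62. In both runs of total RNA the Gas5 median was thus below that of the other 3 lists, and in size-selected RNA it was not.

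The pattern of the summed Gas5 level, centred within each kind of library, was compared with the 187 other snoRNAs that had at least 10 reads in each of the 8 libraries. The most alike were Snord19 (Pearson r = 0.987), Gm23008 (0.979) and Snord49a (0.975), over 8 libraries that share their depth and scaling. Snord49a, for example, had 2243 and 1827 CPM in Ion Proton controls, 1580.5 and 1385 CPM after withdrawal, 1675 and 3271 RPM in SOLiD total RNA and 974 and 2909 RPM in size-selected RNA. Each member was compared in the same way with the sum of the other 8, so that no member was part of its own reference. Gm22489 was the most alike (r = 0.975), then Gm26224 (0.912), while r was -0.29 for Gm23212 and -0.49 for Snord78.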

How the data were processed

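Small RNA reads of 8 BMDM libraries were analysed. In the Ion Proton run, reads were trimmed with cutadapt, kept from 15 bases upwards and mapped on mm10 by Bowtie2 in up to 10 places each, and the authors deposited raw read counts per feature. SOLiD reads were mapped with LifeScope, and the authors deposited values per 1000000 listed reads (RPM). All RPM were within 0.01 of whole multiples of 1 read, so reads were recovered. Reads with several places can be counted on more than 1 copy.

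CPM were computed over all listed features. The Ion Proton counts went through edgeR 4.0.16 (R 4.3.3) with TMM factors and the quasi-likelihood test, for features counted 5 times or more in sum, and the SE was the change over the root of F. Total RNA of both runs (6 libraries) was fitted in limma 3.58.1 with an intensity trend on log2 of CPM or RPM plus 1, a scale that understates changes of low features, with run as a term or with a treatment by run term. P-values were adjusted over all features by the Benjamini-Hochberg method, with a threshold of 0.05. SOLiD ratios used a pseudocount of 1 and were called from 2-fold where the mean reached 10 RPM. The study calls the Ion Proton replicates biological, and the culture or animal behind each was not given in the sources used here. Scatter between them was 23.0 (control) and 22.4 (withdrawal) times the counting variance, so neither pair agreed within counting noise. Positions, introns and names came from GENCODE release M21, of the same build (1906 of 2022 Ensembl identifiers matched). All members are named. Beside them stand the snoRNAs inside Snhg1 and Rpl13a, with up to 4 examples of highest mean CPM, and all other snoRNAs. The members and lists were chosen with earlier results of these data known. Fits were tested on simulated data. Alternatives were other scalings, tests (DESeq2 1.42.0 among them), filters and pseudocounts, a replicate block, and leaving out each library.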

Additional observations from a re-analysis of the deposited data

Results flagged for a closer look

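Of the Gas5 snoRNAs, 3 changed differently in the SOLiD and the Ion Proton libraries of total RNA by limma's treatment by run term. The SOLiD change minus the Ion Proton change was 1.42 on the log2 scale for Gm26224 (adjusted p = 0.0208), 2.87 for Mir5117 (adjusted p = 0.000705) and 1.97 for Gm25789 (adjusted p = 0.0132). The SOLiD part of each value rests on 1 library a condition, and without either withdrawal library of the Ion Proton run none of the 3 passed.

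Within the SOLiD run, 4 members moved in opposite directions in total and in size-selected RNA per 1000000 listed reads. The size-selected log2 ratio minus the total one was 3.77 for Snord80, 3.21 for Snord47, 1.07 for Gm22357 and -2.36 for Gm25789. For Gm22357, with 69 and 48 size-selected reads and under the mean of 10 RPM, this held on that scale alone: it was lower in both fractions with median centring (-1.03 in total and -0.46 in size-selected RNA) and per 1000000 snoRNA reads (-1.23 and -0.90). The other 3 stayed opposite under both. These differences were not tested, since each fraction has 1 library a condition. Groups of 2 and of 1 are too small for a search for outlying libraries.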

How the results depend on the processing

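Depth limits Gm22357 and Snord78, the members with the fewest reads, and every SOLiD ratio rests on 1 library a condition. Of the 9 members 1 passed in the Ion Proton run. There were 3 with DESeq2's size factors, 5 with its Wald test, 2 with snoRNA scaling, with limma and with a minimum count of 1 or 10, 0 with miRNA scaling, and 0 to 4 without 1 library (0 without the second withdrawal and 4 without the second control library). All these members were lower. Beside them, 182 of all features passed as lower, 255 with DESeq2's size factors, 195 with snoRNA scaling and 229 with limma. With a minimum count of 1 or 10 these were 202 and 206, and with miRNA scaling 80. In the fit of both runs 1 passed, against 2 with median centring, 0 with miRNA scaling and with a minimum count of 1. Without 1 library 0 to 2 passed (0 without any of the 4 Ion Proton libraries, 2 without either SOLiD library). Without either SOLiD library that fit estimates the change from the Ion Proton libraries alone. For the difference between the runs 3 passed, 3 with median centring (2 above and 1 below 0) and 4 with voom (2 and 2), and 0 to 2 without 1 Ion Proton library, an alternative chosen after seeing the data. At least 2-fold in SOLiD total RNA were 2 members. Median centring or values per 1000000 snoRNA reads gave 4, with no share of all features computed for either. The cause of these shifts was not tested.

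The labels give same-numbered Ion Proton control and withdrawal libraries a shared letter, A or B, without saying whether they were paired. Deviations of same-numbered libraries correlated at -0.03 over 2029 features, which cannot settle whether the design was paired. With the replicate block 1 member passed in the Ion Proton run and 361 of all features instead of 500, and in both runs 0 members passed (adjusted p of Gm23212 = 0.111 by limma) and 29 features instead of 295. Left out of the fit of both runs, an Ion Proton library left 15 to 81 calls and a SOLiD library 560 or 564, the latter from the Ion Proton libraries alone. The Ion Proton run gave 288 to 513 calls without 1 library. The difference between the runs, 358 above and 85 below 0, became 246 and 244 with median centring and 156 and 345 with voom, and without 1 Ion Proton library 0 to 211 features passed.

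Direction turned in the following cases, on the log2 scale. With miRNA scaling, Ion Proton changes became 0.050 (Snord78), 0.19 (Mir5117), 0.020 (Snord80) and 0.024 (Gm25789), and changes over both runs 0.47 (Gm26224), 0.46 (Gm22489), 0.17 (Gm22357), 0.37 (Snord78), 0.18 (Snord80) and 0.59 (Snord47). The difference between the runs became -0.19 (Gm23212) and -0.35 (Snord78) with median centring, and -0.13 (Gm22489), -0.58 (Gm23212) and -0.72 (Snord78) with voom. In SOLiD total RNA, Gm22489 became -0.20 with median centring and -0.39 per 1000000 snoRNA reads. In size-selected RNA, Mir5117 became -0.017 and Gm22357 -0.46 with median centring, and per 1000000 snoRNA reads Gm26224 became -0.22, Gm22489 -0.47, Gm22357 -0.90 and Mir5117 -0.51. The summed Gas5 level, -0.49, 0.47 and 1.27 as log2 ratio in the Ion Proton, SOLiD total and size-selected libraries, became -0.29, -0.24 and -0.26 as a share of snoRNA reads.

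Without 1 library, Snord80 ran from -0.61 to 0.011 in the Ion Proton run. Over both runs Gm26224 ran from -0.63 to 0.075, Gm22489 from -0.41 to 0.013, Mir5117 from -0.18 to 1.05, Snord47 from -0.15 to 0.083 and Gm25789 from -0.32 to 0.68. Of these, -0.63, -0.41, -0.18, 0.083 and -0.32 came from fits without a SOLiD library, which rest on the Ion Proton libraries alone. For the difference between the runs Gm22357 ran from -0.29 to 0.12 and Snord78 from -0.17 to 0.41.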
